A study of Homo sapiens with 9 samples.

Results

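The TMED genes encode the p24 proteins, small membrane proteins that cycle between the endoplasmic reticulum and the Golgi and select cargo for transport vesicles. All 10 genes, TMED1 to TMED10, were targeted in the screen, with 40 guide RNAs in all, out of 19114 targeted genes. The genes were taken by name, and the family was chosen by the score of 1 member: TMED10 had been seen among the 10 lowest genes under DMSO. Levels relative to day 0 are therefore given as a description, without a test. The difference between ruxolitinib (RUX) and DMSO was tested.

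The cells were HEL, an established erythroleukemia line that carries a JAK2 mutation, and RUX is an inhibitor of the kinases JAK1 and JAK2. All libraries came from HEL cells that carry Cas9 and the pooled Brunello knockout library. The groups were 1 library at day 0, 4 libraries after 12 days under DMSO, and 4 libraries after 12 days under 200 nM RUX. The measurement was the share of reads held by each guide in genomic DNA, so no RNA or protein level of a TMED gene was measured. The labels do not say whether the 4 libraries of a condition came from separate infections, and the spread between them may be technical in part.

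The p24 proteins form 4 subfamilies and work as mixed complexes. TMED10 belongs to the delta and TMED2 to the beta subfamily, TMED4 and TMED9 to the alpha, and TMED1, TMED3, TMED5, TMED6 and TMED7 to the gamma subfamily. TMED8 shares their GOLD domain but is usually set apart from these 4. Their tails bind the COPI and COPII vesicle coats, and TMED2 and TMED10 are known for carrying proteins with a GPI lipid anchor. TMED10 is also known to bind gamma-secretase and to stabilize other p24 proteins.

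For each library, ln((value + 5)/(day 0 value + 5)) was averaged over the guides of a gene to give its score. Values were scaled to the non-targeting guides, so that 0 stands for the day 0 level. Guides needed a value of at least 30 at day 0, which 39 of the 40 TMED guides reached. The exception, sg_37537 against TMED7, had 1 read at day 0, and TMED7 was scored on 3 guides. Libraries held between 19631338 and 26611323 reads, with a median of 233 reads per targeting guide at day 0. DMSO replicate 3 stood apart, with an SD of 0.46 over the non-targeting guides against 0.26 to 0.30 in the other 7 day 12 libraries.

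TMED10 was the member with the lowest score in both conditions, and the other 9 genes lay far above it. The scores of TMED10 were −2.02, −1.52, −1.72 and −1.41 in DMSO replicates 1 to 4. Under RUX they were −1.33, −1.87, −1.96 and −1.51 in replicates 1 to 4. The ranges of the conditions overlapped, with the lowest library under DMSO and the highest under RUX, and all 8 lay below −1.3. The mean was −1.67 ± 0.27 (SD, n = 4 libraries) under DMSO and −1.67 ± 0.30 (SD, n = 4) under RUX, which left 18.9% of the guide level at day 0 in both. From the lowest score, TMED10 ranked 8 under DMSO and 13 under RUX of 19112 genes. Without DMSO replicate 3 its mean under DMSO was −1.65. The gene lies on chromosome 14 of GRCh38, from 75131469 to 75176612.

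**Figure D1:**
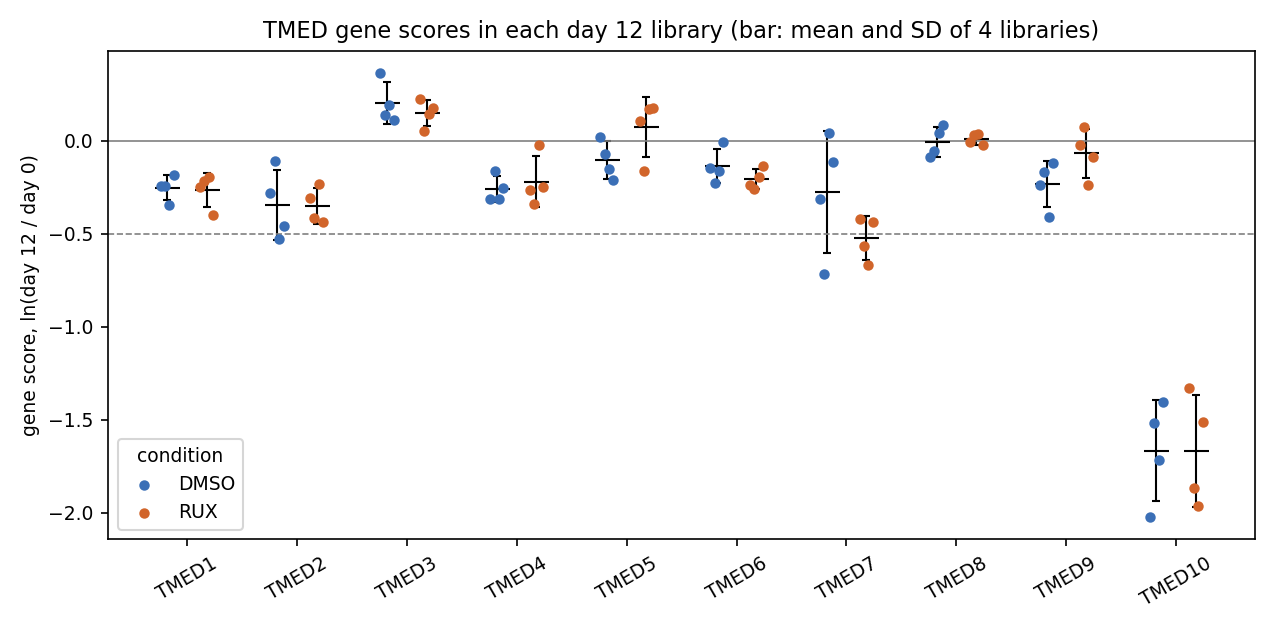
Score of each TMED gene, ln(day 12/day 0), in the 4 DMSO libraries (blue) and the 4 RUX libraries (orange); black bars give the mean and SD of 4 libraries, and the dashed line marks −0.5. TMED10 lies between −2.02 and −1.33 in all 8 libraries, and the means of the other 9 genes lie between −0.52 and 0.20.

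The score of TMED10 rests on 3 of its 4 guides. The guide sg_29720 had a scaled value of 148.3 at day 0. At day 12 its values were 0, 3.81, 5.50 and 2.76 under DMSO and 0.99, 2.70, 0.99 and 4.45 under RUX. These correspond to between 0 and 6 reads per library, and a count of 0 allows up to 3 reads. Arithmetic means of these values, with nothing added, were 2.03% of day 0 under DMSO and 1.54% under RUX.

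The guide sg_29721 had 352.1 at day 0. It stood at 30.1, 50.4, 33.9 and 90.0 under DMSO and at 95.6, 15.3, 38.6 and 62.2 under RUX, with the highest and the lowest value both in RUX libraries. The guide sg_29722 began lower, at 56.5, and had 3.12, 16.2, 6.42 and 11.9 under DMSO and 25.6, 12.6, 2.97 and 13.3 under RUX. The guide sg_29719 kept most of its level. It stood at 440.6 at day 0, at 317.1 to 430.7 under DMSO and at 273.5 to 397.3 under RUX.

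On the ln scale, the means of sg_29720, sg_29721 and sg_29722 were −2.99 ± 0.32, −1.93 ± 0.45 and −1.52 ± 0.42 under DMSO (SD, n = 4 libraries). Under RUX they were −3.07 ± 0.22, −1.98 ± 0.69 and −1.30 ± 0.56 (SD, n = 4). All 3 lay below each of the 990 non-targeting guides, whose lowest mean was −1.26 under DMSO and −0.97 under RUX. The mean of sg_29719 was −0.23 ± 0.14 under DMSO and −0.33 ± 0.16 under RUX, and 185 and 56 non-targeting guides stood as low. Of 18125 genes with 4 usable guides, 27 (0.149%) had exactly 3 guides below −1 under DMSO and 33 (0.182%) under RUX, and TMED10 was among the 17 with this pattern in both. This pattern was described after the values were seen. TMED10 was chosen for its low score under DMSO, so several low guides follow largely from that choice. The RUX values share the day 0 library, and nothing is read from these shares. Without sg_29719 the score of TMED10 was −2.14 under DMSO and −2.11 under RUX, and without sg_29720 it was −1.23 and −1.20. On reads summed over the 4 guides it was −0.84 and −0.87 by edgeR.

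**Figure D2:**
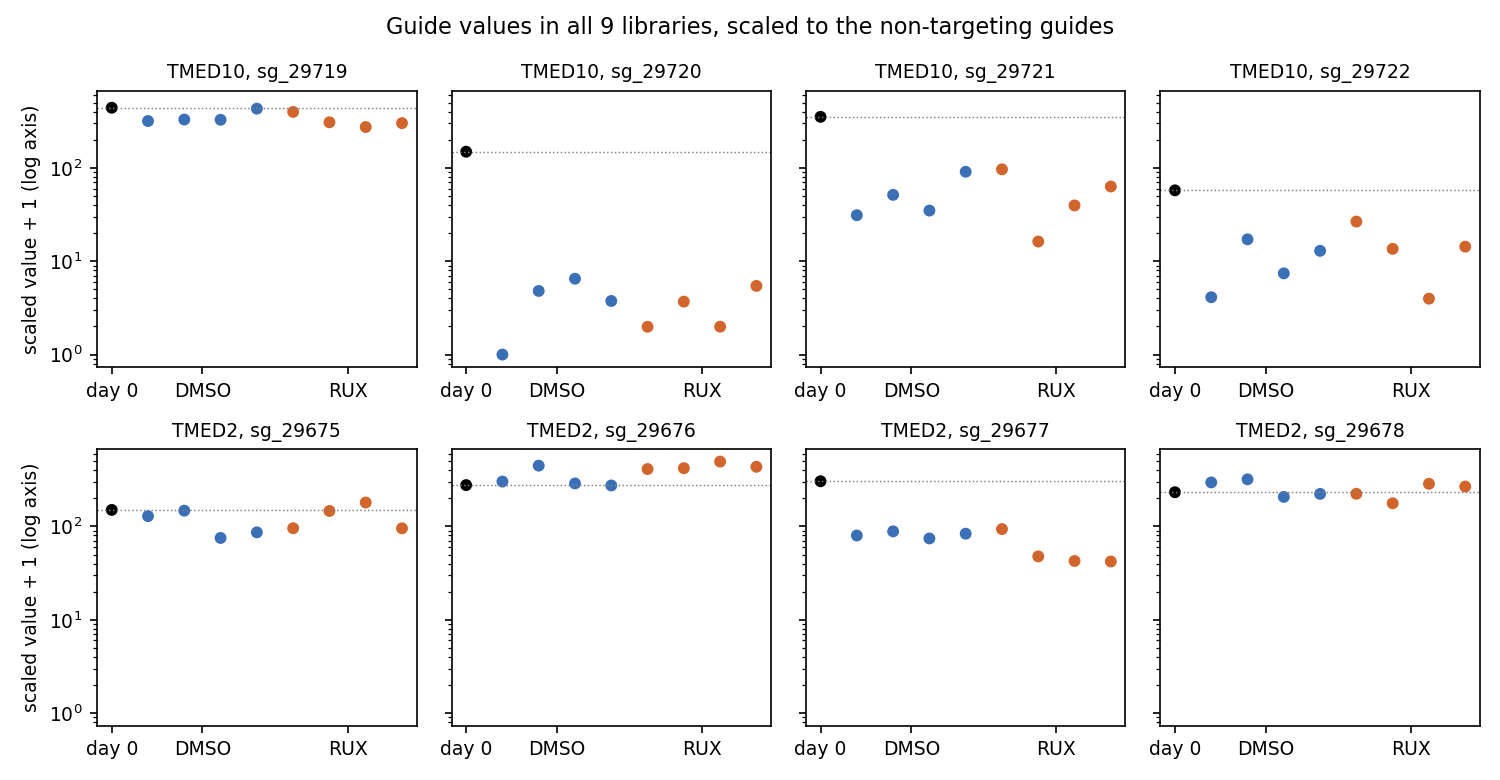
Values of the guides against TMED10 (top) and TMED2 (bottom) in each of 9 libraries, scaled to the non-targeting guides and plotted plus 1 on a log axis; black is day 0, blue DMSO and orange RUX, and the dotted line is the day 0 value. For TMED10, sg_29720, sg_29721 and sg_29722 lie far under their day 0 value in all 8 day 12 libraries, and for TMED2 only sg_29677 does.

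Next to TMED10, the partner with which it is best known to pair, TMED2, had a low level in 1 guide. The scores of TMED2 were −0.28, −0.11, −0.53 and −0.46 in DMSO replicates 1 to 4 and −0.31, −0.42, −0.23 and −0.44 in RUX replicates 1 to 4. The mean was −0.34 ± 0.19 under DMSO and −0.35 ± 0.096 under RUX (SD, n = 4 libraries each). Behind these means stood guides that differed widely from each other. The guide sg_29677 had a value of 304.1 at day 0, 79.0, 87.6, 73.3 and 82.7 under DMSO, and 92.7, 46.7, 41.6 and 41.1 under RUX. Its mean ln ratio was −1.29 ± 0.07 under DMSO and −1.68 ± 0.36 under RUX (SD, n = 4), lower than every non-targeting guide. The lowest of those was close under DMSO, at −1.26, and at −0.97 under RUX.

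The other 3 guides of TMED2 stayed within the range of the non-targeting guides. The guide sg_29676 stood at 276.3 at day 0, at 273.7 to 447.3 under DMSO and at 411.1 to 494.5 under RUX. The guide sg_29678 stood at 231.5 at day 0 and at 176.1 to 318.8 over all 8 day 12 libraries, and sg_29675 at 149.4 and at 74.3 to 179.4. A single guide below −1 with the rest above −0.5 was seen in 501 of 18125 genes (2.76%) under DMSO, in 493 (2.72%) under RUX and in 178 in both, TMED2 among them. This pattern, too, was described after the values were seen. TMED2 lies on chromosome 12, from 123584552 to 123598582.

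The other 9 members had scores from −0.34 to 0.20 under DMSO and from −0.52 to 0.15 under RUX. Under DMSO, 1 of the 10 genes, TMED10, had a score below −0.5, taken here as the threshold of a dependency, which 4.33% of all 19112 genes passed. Under RUX, 2 of 10 lay below it, TMED10 and TMED7, against 4.65% of all genes. The median over the 9 members without TMED10 was −0.23 under DMSO and −0.21 under RUX, and the median over all genes was −0.085 and −0.095. Scores were negative in 9 of 10 members under DMSO and 7 of 10 under RUX, while 68.5% and 71.5% of all genes were negative. With TMED10 in the count of values below −0.5, nothing is read from these shares, since it was chosen by that score.

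In order from the lowest score under DMSO stood TMED10, TMED2, TMED7, TMED4, TMED1, TMED9, TMED6, TMED5, TMED8 and TMED3. The gap between neighbours exceeded the larger of their SDs at both ends only, from TMED10 to TMED2 (1.32) and from TMED8 to TMED3 (0.21). Under RUX the order was TMED10, TMED7, TMED2, TMED1, TMED4, TMED6, TMED9, TMED8, TMED5 and TMED3. There the gaps from TMED10 to TMED7 (1.14), from TMED7 to TMED2 (0.17) and from TMED6 to TMED9 (0.14) exceeded the SDs, and no other gap did.

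Among the gamma members, TMED3 had the highest score in both conditions and TMED7 the lowest. TMED3 stood at 0.20 ± 0.11 under DMSO and 0.15 ± 0.07 under RUX (SD, n = 4), above 0 in all 8 libraries. Its guides sg_32775 and sg_32776 had mean ln ratios of 0.34 and 0.39 under DMSO and 0.36 and 0.38 under RUX. At least 927 of the 990 non-targeting guides stood lower in each of these cases. For sg_32776 the day 0 library held 55 reads. The other guides of TMED3 did not stand as high, with −0.07 and −0.18 for sg_32777 and 0.14 and 0.03 for sg_32778 under DMSO and RUX. TMED3 lies on chromosome 15, from 79311112 to 79413886.

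TMED7, a gamma member known for moving the innate immune receptor TLR4 to the cell surface, had scores of −0.31, −0.72, 0.04 and −0.11 in DMSO replicates 1 to 4. Under RUX the scores were −0.42, −0.57, −0.67 and −0.44 in replicates 1 to 4. DMSO replicate 2 was the lowest of all 8 libraries and DMSO replicate 3 the highest, so the RUX libraries lay within the DMSO range. The mean was −0.28 ± 0.33 under DMSO and −0.52 ± 0.12 under RUX (SD, n = 4). The guide sg_37535 was the lowest under RUX, with 397.9 at day 0 and 180.4, 140.2, 107.0 and 232.3 under RUX. Under DMSO the same guide stood at 203.8, 135.1, 362.1 and 325.1. The mean under RUX lay just past −0.5, and 10 of 19 alternatives put it above that value, leaving out RUX replicate 3 among them. Of the 19, 4 leave out a DMSO library, which cannot change a mean under RUX.

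The library also targets the readthrough locus TMED7-TICAM2, which is not a member of the family and covers the TMED7 gene. TMED7 lies on chromosome 5, from 115613210 to 115626036, and TMED7-TICAM2 from 115578496 to 115626036. The 4 guides named for TMED7-TICAM2 gave scores of −0.18 ± 0.06 under DMSO and −0.11 ± 0.13 under RUX (SD, n = 4). Since the table gives no guide positions, which part of the shared locus each guide cuts was not determined.

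The remaining gamma members had means between −0.26 and 0.07. TMED1, known as a partner of the interleukin receptor ST2, stood at −0.25 ± 0.07 under DMSO and −0.26 ± 0.09 under RUX, below 0 in all 8 libraries. Its guide sg_29866 had the lowest means, −0.55 ± 0.17 and −0.68 ± 0.20, and 21 and 2 of the 990 non-targeting guides stood as low. TMED5 stood at −0.11 ± 0.10 under DMSO and 0.07 ± 0.16 under RUX. TMED6, which is found mainly in pancreas, stood at −0.14 ± 0.09 and −0.21 ± 0.05 (SD, n = 4 throughout). TMED1 lies on chromosome 19 from 10832067 to 10836212, TMED5 on chromosome 1 from 93149742 to 93180413, and TMED6 on chromosome 16 from 69343250 to 69351786.

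The alpha members TMED4 and TMED9 had means of −0.26 ± 0.07 and −0.23 ± 0.13 under DMSO, and −0.22 ± 0.14 and −0.07 ± 0.13 under RUX (SD, n = 4). For TMED9, the guide sg_40450 was the lowest under DMSO, with 219.8 at day 0 and 135.2, 132.3, 85.3 and 72.6 under DMSO. Under RUX it stood at 231.7, 216.5, 152.6 and 205.6, above all 4 DMSO libraries. The other 3 guides of TMED9 ranged in mean from −0.19 to 0.07 under DMSO and from −0.23 to 0.03 under RUX. TMED4 lies on chromosome 7 from 44577894 to 44582231 and TMED9 on chromosome 5 from 177592203 to 177597242. TMED8, the member outside the 4 subfamilies, stood at −0.01 ± 0.08 under DMSO and 0.01 ± 0.03 under RUX.

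Over the family, 4 of the 39 usable guides had means outside the range of the non-targeting guides in each condition. They were sg_29720, sg_29721 and sg_29722 of TMED10 and sg_29677 of TMED2. The other 34 guides, leaving aside sg_29719 of TMED10, ranged in mean from −0.74 to 0.39 under DMSO and from −0.90 to 0.52 under RUX. The 5th to 95th percentile of the non-targeting guides ran from −0.44 to 0.36 under DMSO and from −0.35 to 0.34 under RUX. Of the 39 guides, 10 lay below and 1 above that span under DMSO, and 11 lay below and 4 above it under RUX. The same counts were not made over all targeting guides. The median score over all genes was itself below 0, at −0.085 under DMSO and −0.095 under RUX. So nothing about the family is read from these counts, which also hold the guides of TMED10, by which it was chosen.

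**Figure D3:**
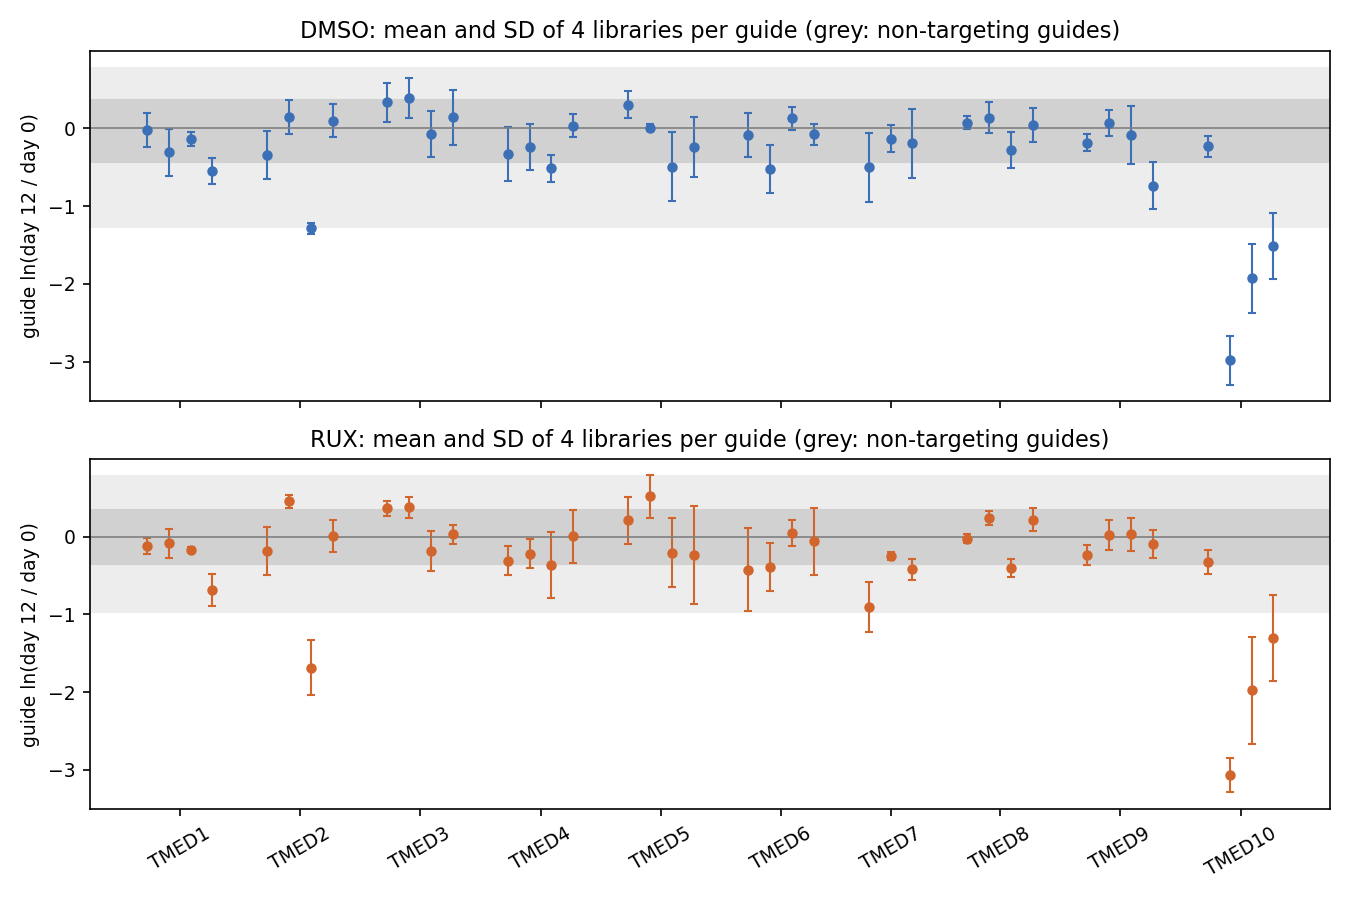
Mean ln(day 12/day 0) of each of 39 TMED guides under DMSO (top) and RUX (bottom), grouped by gene; bars give the SD of 4 libraries, dark grey the 5th to 95th percentile and light grey the full range of 990 non-targeting guides. The same 4 guides, 3 of TMED10 and 1 of TMED2, lie below the full range in both panels.

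No TMED gene was called different between RUX and DMSO. The comparison asks whether guides were depleted to a different level after 12 days under RUX than under DMSO. The number of cell divisions in each condition is not given. A change in depletion per division can therefore not be told apart from a change in growth rate. The difference in the TMED10 score was −0.0011 on the natural log scale, with a standard error of 0.18 and a 95% confidence interval from −0.38 to 0.38. Limma gave an adjusted p of 0.999, and 4 against 4 libraries gave p = 1 by exact permutation (two-sided). The interval does not exclude differences of up to 0.38 in either direction. The sign changed with the library left out, from −0.12 without DMSO replicate 1 to 0.098 without RUX replicate 3. For TMED2 the difference was −0.005 (95% confidence interval −0.24 to 0.23; adjusted p = 0.996 from limma).

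The largest differences were −0.25 for TMED7 (95% confidence interval −0.54 to 0.04), 0.18 for TMED5 (−0.03 to 0.38) and 0.17 for TMED9 (−0.05 to 0.38). Their adjusted p from limma were 0.616, 0.612 and 0.642, and the exact permutation p were 0.23, 0.14 and 0.11, where the smallest possible is 0.029. The difference of TMED7 was −0.40 without DMSO replicate 2 and −0.14 without DMSO replicate 3. The other 7 members differed by between −0.07 and 0.04. Limma called 0 of 10 members, and none had an unadjusted p under 0.05. Over all genes limma called 0 of 19112 (0%), and 1706 (8.93%) had an unadjusted p under 0.05. RUX libraries lay fully apart from DMSO libraries in 0 of 10 members, against 943 of all genes (4.93%). With edgeR and DESeq2, 0 of 10 members were called as well, against 6 and 31 of all genes.

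**Figure D4:**
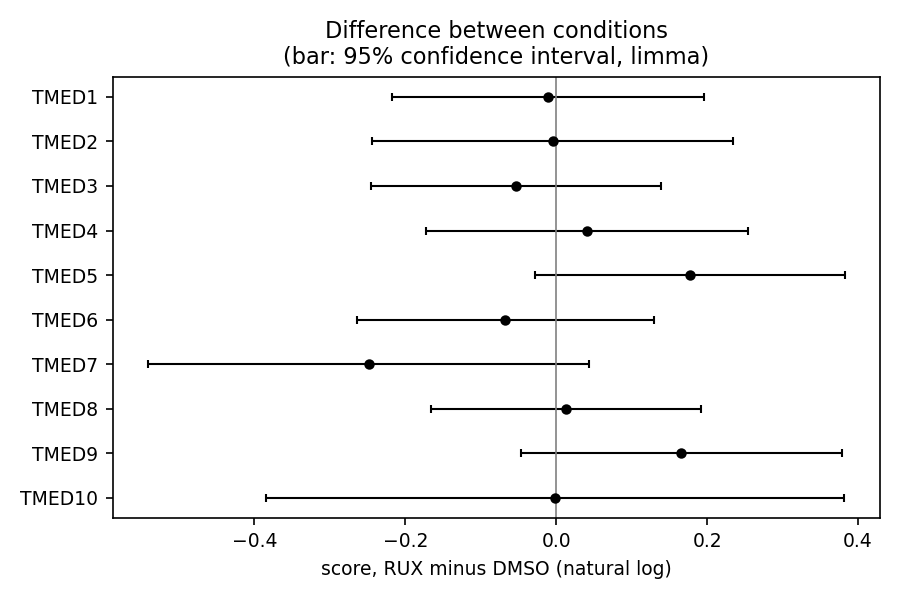
Difference in the score of each TMED gene between RUX and DMSO on the natural log scale, with 95% confidence intervals from limma over 4 libraries per condition. All 10 intervals hold 0, and the widest is that of TMED10, from −0.38 to 0.38.

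Guide by guide, limma on all 75434 usable guides called 0 of the 39 TMED guides different between RUX and DMSO, against 7 of all guides (0.00928%). At an unadjusted p under 0.05 there were 2 TMED guides, against 6684 of all guides (8.86%). These were sg_40450 of TMED9, with a difference of 0.64 (95% confidence interval 0.17 to 1.11; adjusted p = 0.434 from limma), and sg_37480 of TMED5, with 0.51 (0.04 to 0.98; adjusted p = 0.532 from limma). The latter had values of 111.0 at day 0, 106.5 to 118.3 under DMSO and 138.4 to 254.4 under RUX. For sg_29677 of TMED2 the difference was −0.40 (adjusted p = 0.715 from limma). For the guides of TMED10 the differences were −0.09 for sg_29719, −0.08 for sg_29720, −0.05 for sg_29721 and 0.21 for sg_29722, with adjusted p from limma between 0.903 and 0.982.

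The genes around TMED10 on the chromosome did not share its score. The 20 nearest scored genes, 10 on each side, had a median score of −0.07 under DMSO and −0.05 under RUX. The lowest of them was EIF2B2, a subunit of a translation initiation factor, at −0.40 under DMSO and −0.66 under RUX. TMED8 is on the same chromosome, from 77335021 to 77377094, with a median of −0.12 and −0.09 among its neighbours. The neighbours of TMED6 had a median of −0.27 under DMSO and −0.26 under RUX, and those of TMED1 −0.22 and −0.26. After the median of the neighbours was subtracted, the score of TMED10 was −1.62 under DMSO and −1.61 under RUX. Since TMED10 was chosen for its low score, almost any set of genes would lie above it. An effect of position or copy number was not tested.

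By scores over the 8 day 12 libraries, the genes nearest to TMED10 were LOC100144595, MYC, PSMA6, PRPF8 and RPP21. Their root mean square differences from TMED10 were 0.17, 0.26, 0.27, 0.32 and 0.33. MYC is a transcription factor of growth, PSMA6 a proteasome subunit, PRPF8 a splicing factor and RPP21 a subunit of RNase P. The genes nearest to TMED2 were NUP214, SARM1, FAM13C, PMPCB and BTBD3, with root mean square differences between 0.07 and 0.08. This measure compares levels in 8 libraries that share 1 day 0 library, and many genes have scores near that of TMED2. TMED10 was chosen for its low score, so the genes nearest to it by level had to be low as well. Nothing on function is read from these lists.

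Genes with known roles beside the p24 proteins were listed in 5 groups of 91 genes in all, and tested against day 0 by limma over all genes. Since day 0 was 1 library, these tests assume that it varies like the day 12 libraries. Under DMSO 1 of the 91 was lower, DPM3, while 67 of all genes (0.351%) were called lower. Under RUX 2 were lower, DPM3 and DPM2, while 97 of all genes (0.508%) were called lower. None was higher in either condition. By edgeR DPM3 was not called under DMSO (adjusted p = 0.199) and COPG1 was, while 3 genes were called under RUX, DPM2, DPM3 and COPG1. DESeq2 called 1 and 3 genes. By limma the count under DMSO was 0 without DMSO replicate 1 or DMSO replicate 3, and 0 in both conditions with a pseudocount of 1, the median over guides or the median of neighbouring genes subtracted. The median score of the 91 genes was −0.13 under DMSO and −0.14 under RUX, and 11 and 9 of them lay below −0.5, against 4.33% and 4.65% of all genes.

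Of 29 genes of GPI anchor synthesis and remodelling, the modification carried by the best known cargo of TMED2 and TMED10, 1 passed under DMSO and 2 passed under RUX. DPM3 stood at −1.21 ± 0.12 under DMSO (adjusted p = 0.023 from limma) and −1.21 ± 0.14 under RUX (adjusted p = 0.016 from limma). DPM2 stood at −1.25 ± 0.15 under RUX (adjusted p = 0.011 from limma) and at −0.88 ± 0.08 under DMSO (adjusted p = 0.079 from limma; SD, n = 4). DPM2 and DPM3 are subunits of dolichol phosphate mannose synthase, which also supplies mannose for N-glycans and O-mannose. Its other subunit, DPM1, stood at −0.31 ± 0.07 under DMSO (adjusted p = 0.646 from limma) and was not called. Under RUX DPM1 stood at −0.48 ± 0.10 (adjusted p = 0.303 from limma; SD, n = 4) and was not called either. Of the 29 genes, 5 lay below −0.5 under DMSO, 3 under RUX and 3 in both. The group's median was −0.09 under DMSO and −0.07 under RUX.

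None of the other 62 genes passed in limma at the settings used throughout. With a pseudocount of 20, limma called 3 of the 91 genes under DMSO and 4 under RUX. A gene that was not called is therefore not shown to be dispensable. Of 15 genes of the COPI coat and its ARF1 cycle, 3 lay below −0.5 in both conditions, with a group median of −0.17 under DMSO and −0.18 under RUX. The coat subunit COPG1 stood at −0.74 ± 0.08 and −0.80 ± 0.11 (adjusted p = 0.114 and 0.071 from limma), and passed in both by edgeR (adjusted p = 0.039 and 0.020). COPB2 stood at −0.57 and −0.61. Of 16 genes of the COPII coat and exit sites, 1 lay below −0.5 in each condition, SEC24A at −0.50 under DMSO and PREB at −0.64 under RUX. Of 25 other cargo receptors, SNAREs and Golgi matrix genes, 2 did so in both conditions, the SNARE SEC22B at −0.55 and −0.80 and the tether USO1 at −0.60 and −0.68. Of the 6 gamma-secretase genes none lay below −0.5, and the lowest were APH1A at −0.45 and −0.44 and APH1B at −0.43 and −0.33. Between RUX and DMSO, limma called 0 of the 91 genes, and 5 had an unadjusted p under 0.05, against 8.93% of all genes.

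**Figure D5:**
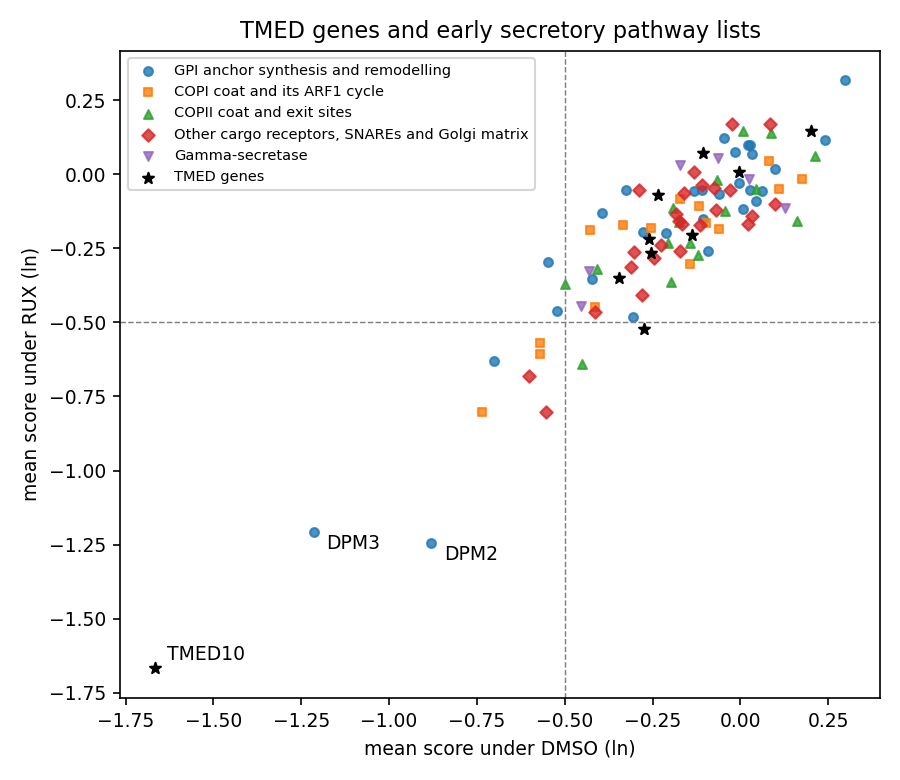
Mean score of each gene under DMSO (x axis) and RUX (y axis), both as ln(day 12/day 0), for the TMED genes (stars) and the 91 genes of 5 early secretory pathway groups; dashed lines mark −0.5. TMED10 lies at −1.67 on both axes, below DPM3 at −1.21 and −1.21 and DPM2 at −0.88 and −1.25.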

How the data were processed

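Guide reads were counted by the authors with MAGeCK (mageck count), multiplied by 1 factor per library and deposited as a signal per guide, so the unit is no raw count. Deposited signal values were whole reads times that factor (100% within 0.001), and reads were recovered for the count tools. The authors' beta scores and copy number normalization were not used.

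The 1000 non-targeting guides set the scale of each library, through their median ratio to the other libraries. Guides with a value under 30 at day 0 were left out, as were genes with fewer than 2 remaining guides. The 3 conditions entered limma 3.58.1 (R 4.3.3) together over all genes, with a mean-variance trend over the mean score, no block and Benjamini-Hochberg adjustment at 0.05. Day 0 had 1 library, whose spread was taken to equal that at day 12. Guides were fitted likewise on ln values, with the trend over abundance. Reads were summed per gene for 2 count tools, edgeR 4.0.16 and DESeq2 1.42.0. Positions came from RefSeq on GRCh38.p14, which placed 17852 genes by symbol and 1122 by a synonym. The limma step was tested on simulated data.

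Members, lists and alternatives were chosen with earlier results of these data known. Named were all TMED genes, the 5 genes nearest to TMED10 and to TMED2, and per group up to 4 genes past the threshold or otherwise the lowest 2. EIF2B2, DPM1 and TMED7-TICAM2 were added as counterparts.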

Additional observations from a re-analysis of the deposited data

Results flagged for a closer look

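In 7 of 98 groups of 4 libraries (20 of TMED gene scores and 78 of guide values), the highest or lowest library was far from the rest. Chance flags about 1 group in 20, or 4.9 here. All 7 concerned guides, and values are ln ratios to day 0.

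The TMED10 guide that kept most of its level, sg_29719, was at −0.022 in DMSO replicate 4 and between −0.32 and −0.29 in the other DMSO libraries. The low TMED2 guide, sg_29677, was at −1.15 in RUX replicate 1 and between −1.90 and −1.79 in the other RUX libraries. In TMED7, sg_37538 was at −0.86 in DMSO replicate 2, with the remaining DMSO libraries from −0.03 to 0.10. The same guide was at −0.22 in RUX replicate 1, with the remaining RUX libraries from −0.51 to −0.47. In TMED8, sg_67423 was at −0.62 in DMSO replicate 2, with the remaining DMSO libraries from −0.20 to −0.12. It was at −0.23 in RUX replicate 3, with the remaining RUX libraries from −0.47 to −0.44. In TMED3, sg_32777 was at −0.57 in RUX replicate 2, with the remaining RUX libraries from −0.09 to −0.01.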

How the results depend on the processing

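The score of TMED10 was negative under all 23 alternatives in each condition, which its choice by a low score made likely. Counted among these is leaving out each library of the other condition, which cannot change the score. In size, the score depended on the pseudocount and on how guides were weighted. It was −1.98 (DMSO) and −1.97 (RUX) with a pseudocount of 1, −1.22 and −1.23 with a pseudocount of 20, −0.84 and −0.87 by edgeR, and −0.84 and −0.88 by DESeq2. The count tools sum reads, so sg_29719, with the most reads of the 4 guides, has the largest weight there. Chosen after the data were seen, the score without sg_29719 was −2.14 and −2.11, and without sg_29720 −1.23 and −1.20. The difference between RUX and DMSO passed the test under none of its 26 alternatives (adjusted p from 0.904 to 0.999). Its sign turned to 0.0087 as deposited, 0.0090 scaled over all guides, 0.031 scaled to totals, 0.0053 with a pseudocount of 1, 0.085 by the median over guides, 0.0059 after neighbours were subtracted, and 0.030, 0.025 and 0.014 without sg_29719, sg_29720 and sg_29721. It ran from −0.12 to 0.098 with 1 library left out.

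Members called between conditions stayed at 0 in all 22 alternatives and TMED guides in all 13. TMED10 was the 1 member below −0.5 under DMSO in all 19, among them those that leave out a RUX library, which cannot change this. Under RUX the count was 1 as deposited, scaled over all guides or to totals, with a pseudocount of 20, no day 0 filter, the median over guides, neighbours subtracted, edgeR or DESeq2, and 1 to 2 with a library left out (1 without RUX replicate 3). Pathway genes called numbered 0 (DMSO) and 0 (RUX) with a pseudocount of 1, the median over guides or neighbours subtracted, 3 and 4 with a pseudocount of 20, no trend or a trend over abundance (chosen later), and 0 under DMSO with a day 0 value of at least 100. With 1 library left out they numbered 0 to 1 under DMSO (0 without DMSO replicate 1 or 3) and 2 under RUX. By edgeR they numbered 1 under DMSO (COPG1, not DPM3) and 3 under RUX. Same-numbered libraries did not deviate together (correlations −0.13 to 0.03). With a replicate block 0 members were called. The TMED10 difference was −0.0011 there too, which a block cannot change when each replicate number occurs in both conditions. Low reads limit sg_29720, sg_29722 and the range that these scores can show.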
